A study of Rattus norvegicus with 12 samples.

Results

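A set of 9 genes of the TGF-beta family and its Id targets was followed in cultured rat cerebellar granule neurons: the ligands Tgfb1, Tgfb2 and Tgfb3, the activin subunit gene Inhba, the pathway's own inhibitor Smad7, and Id1, Id2, Id3 and Id4. Members were the probe sets to which the array's annotation table gives exactly 1 of these symbols, and 17 of 31042 non-control probe sets met that rule. Of these, 12 probe sets for 7 genes passed the filter on low signal and were tested, among 18625 probe sets tested in all. The 5 that did not pass were the single Tgfb1 probe set, both Inhba probe sets and 2 of 3 for Smad7.

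Total RNA was hybridised to 12 Affymetrix rat arrays, 3 in each of 4 groups, lettered A, B and C in the titles. The low-potassium groups (LK) were cultures in low potassium for 3 h or 6 h, and the GW groups were cultures given GW5074, an inhibitor of the kinase c-RAF, for 3 h or 6 h. Granule neurons are usually kept alive in raised potassium, and lowering it sets off their death. Whether GW5074 was added on top of low potassium is not stated, and no raised-potassium or untreated group was analysed here. The comparisons therefore ask how GW5074 cultures differed from low-potassium cultures at each time, and how each kind of culture differed between 3 h and 6 h. The labels give no age or strain of the animals and no dose of GW5074. The title of GW 6 h array A ends in e3_le1, unlike the other 11 titles, and its meaning is not given. Nothing says that the letters are separate cultures, so the p-values measure a spread between arrays that may be technical.

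TGF-beta ligands bind paired type I and type II receptors on the cell surface, which phosphorylate SMAD2 and SMAD3, while bone morphogenetic proteins (BMPs) act through SMAD1, SMAD5 and SMAD9. The Id genes are classic BMP targets. Their proteins are helix-loop-helix factors without a DNA-binding region, and they hold back neuronal differentiation by pairing with E proteins and so keeping proneural factors such as NEUROD1 from DNA. In the developing brain they are best known from dividing progenitors and from astrocytes.

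The arrays separated mainly by time. Principal component 1 carried 54.7% of the variance. On a scale with the 3 h mean at 0 and the 6 h mean at 1 the 3 h arrays lay between -0.084 and 0.115. Both 6 h arrays of letter B stood apart, at 0.691 in low potassium and 0.628 with GW5074, against 1.099 to 1.235 for the other 6 h arrays. All 10 granule neuron markers on the table were tested, and the lowest, Zic2, averaged 114. Their summed intensity ran from 8057 to 11127 at 3 h and from 14478 to 18503 at 6 h. Astrocyte markers summed to between 3071 and 3813 at 3 h and between 4338 and 6688 at 6 h, oligodendrocyte-lineage markers to 2677 to 3982 and 1891 to 2788. The astrocyte sums rose mainly through Gfap and Aldoc. In low potassium Gfap averaged 473 at 3 h and 1946 at 6 h, and Aldoc 501 and 1061. No marker of any list was at 0, although single values reached 0.793 for the astrocyte transporter gene Slc1a2 and 0.226 for the fibroblast gene Lum. These are sums over whole cultures, in which fewer cells of a type and less RNA per cell cannot be told apart.

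**Figure D1:**
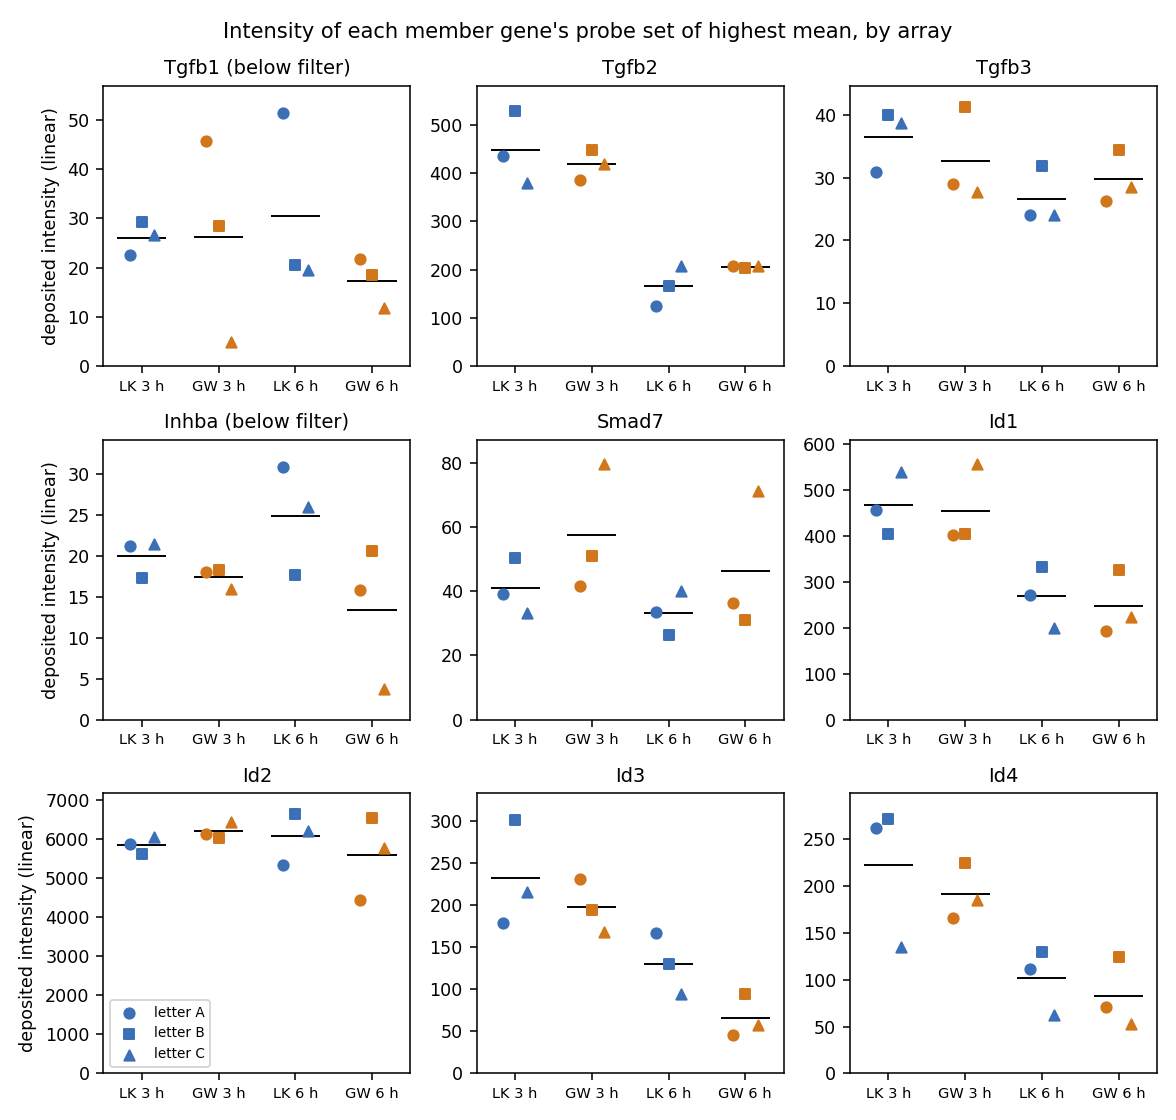
Deposited intensity (linear scale, arbitrary units) of the brightest probe set of each of the 9 genes on the 12 arrays, by group. Circles, squares and triangles are letters A, B and C, blue is low potassium, orange is GW5074, and bars are group means. Tgfb2, Id1, Id3 and Id4 sit lower at 6 h than at 3 h in both kinds of culture, Id2 stays between 4421 and 6644, and the 6 h Id3 mean is lower with GW5074.

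Between 3 h and 6 h, Tgfb2, Id1, Id3 and Id4 fell in low-potassium cultures, and the same 4 genes fell in GW5074 cultures. Over the tested genes, each by its brightest probe set, the median log2 change from 3 h to 6 h was -0.81 in low potassium and -0.92 with GW5074, against -0.003 and -0.004 over all probe sets tested. Id2, Tgfb3 and Smad7 did not pass in either. Counted by probe set, 5 of 12 fell and none rose in each comparison, by limma with Benjamini-Hochberg adjustment below 0.05. Of all 18625 probe sets, 22.7% passed in low potassium and 11.0% passed downward. With GW5074 the shares were 25.0% and 11.9%.

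Tgfb2 encodes a secreted TGF-beta ligand made by neurons and glia. Its brightest probe set (1387172_a_at) read 436.9, 528.4 and 379.7 in the low-potassium arrays A, B and C at 3 h and 123.8, 165.7 and 208.2 at 6 h. With GW5074 it read 386.5, 449.4 and 419.8 at 3 h and 208.2, 204.4 and 206.8 at 6 h. Every 6 h array was lower than every 3 h array in both kinds of culture, and the 3 GW5074 arrays at 6 h were nearly equal. The group means ran from 448 ± 75.0 (SD, n = 3) for low potassium at 3 h through 419 ± 31.4 and 207 ± 1.91 for GW5074 at 3 h and 6 h to 166 ± 42.2 for low potassium at 6 h, and neighbours at the same time did not pass the test. The 6 h level was 2.66-fold lower than the 3 h level in low potassium (log2 change -1.41 ± 0.18 SE, limma adjusted p = 0.000371) and 2.04-fold lower with GW5074 (log2 change -1.03 ± 0.18, limma adjusted p = 0.0013). A second Tgfb2 probe set (1388011_a_at) moved the same way, with log2 changes of -1.08 (limma adjusted p = 0.00155) and -0.87 (limma adjusted p = 0.00416), and its groups did not overlap either. Tgfb2 stayed past the threshold in all 24 alternative settings without a block in each comparison.

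The other ligands were dim. Tgfb3 averaged 36.5 ± 4.93 in low potassium and 32.6 ± 7.41 with GW5074 at 3 h, and 26.6 ± 4.48 and 29.7 ± 4.12 at 6 h (SD, n = 3). All 4 of these groups overlapped, and its log2 change from 3 h to 6 h was -0.28 in low potassium (limma adjusted p = 0.347, 95% interval -0.70 to 0.16) and -0.02 with GW5074 (limma adjusted p = 0.952). Tgfb1 lay between 4.8 and 51.4 over the 12 arrays and was below the filter level of 28 on average. The brighter Inhba probe set, for the subunit of activin A, lay between 3.8 and 30.9 and the other between 5.1 and 26.7. Neither gene was tested.

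Smad7, which encodes the inhibitory SMAD that blocks type I receptors, read 39.1, 50.5 and 33.1 in the LK arrays and 41.6, 50.9 and 79.6 in the GW arrays at 3 h on its tested probe set. At 6 h the LK arrays read 33.6, 26.4 and 40 and the GW arrays 36.4, 31.2 and 71.1. The letter C arrays with GW5074 were the highest at both times. LK and GW arrays overlapped at each time, and 3 h and 6 h arrays overlapped in each kind of culture. Only GW 3 h (41.6 and above) and LK 6 h (40 and below) did not overlap. GW5074 was higher than low potassium in 3 of 3 letters at each time, by a mean log2 difference of 0.36 (95% interval -0.18 to 0.91) at 3 h and 0.33 (-0.22 to 0.87) at 6 h, and neither passed in limma (adjusted p = 1 and 0.983; 0.85 and 0.476 with the letter as a block). Of the 2 dimmer Smad7 probe sets, which were not tested, 1368897_at lay between 1.2 and 30.1 and 1368898_at between 9.1 and 33.5. Their GW5074 differences were 0.57 and 0.26 at 3 h and -0.06 and 0.39 at 6 h, so the sign was not shared at 6 h. On the tested probe set the change from 3 h to 6 h was -0.19 in low potassium and -0.23 with GW5074 (limma adjusted p = 0.624 and 0.557). On 1368897_at it was 0.47 and -0.16, and on 1368898_at 0.01 and 0.14.

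Id1, a target induced directly by BMP-activated SMADs, read 456.8, 405.2 and 538.5 in low potassium at 3 h and 272.3, 332.2 and 200.3 at 6 h. With GW5074 it read 402.4, 403.9 and 556.9 at 3 h and 192.2, 325.3 and 223.4 at 6 h. The 3 h and 6 h arrays did not overlap in either kind of culture, while at each time the LK and GW arrays covered nearly the same range. The group means were 467 ± 67.2 and 454 ± 88.8 at 3 h and 268 ± 66.1 and 247 ± 69.6 at 6 h (LK then GW, SD, n = 3). The 6 h level was 1.76-fold lower in low potassium (log2 change -0.81 ± 0.22 SE, limma adjusted p = 0.0163) and 1.89-fold lower with GW5074 (log2 change -0.92 ± 0.22, limma adjusted p = 0.00807).

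Id3, another BMP target of the same family, read 179.0, 301.3 and 216.1 in low potassium at 3 h and 166.8, 130.2 and 94.0 at 6 h. With GW5074 it read 231.4, 194.5 and 167.9 at 3 h and 46.0, 94.2 and 57.5 at 6 h. Within each kind of culture no 6 h array reached the lowest 3 h array. From highest to lowest the means were 232 ± 62.7 (LK 3 h), 198 ± 31.9 (GW 3 h), 130 ± 36.4 (LK 6 h) and 65.9 ± 25.1 (GW 6 h; SD, n = 3), and the highest LK 6 h array lay just below the lowest of GW 3 h. The 6 h level was 1.77-fold lower in low potassium (log2 change -0.82 ± 0.24 SE, limma adjusted p = 0.0244) and 2.69-fold lower with GW5074 (log2 change -1.43 ± 0.24, limma adjusted p = 0.00115).

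Id4, the Id gene best known from neural stem cells and oligodendrocyte precursors, read 261.2, 270.8 and 135.1 in low potassium at 3 h and 111.7, 129.7 and 62.7 at 6 h on its brightest probe set (1394022_at). With GW5074 it read 165.3, 224.4 and 184.8 at 3 h and 70.9, 123.7 and 53.1 at 6 h. The 6 h arrays lay below the 3 h arrays in both, narrowly so in low potassium, where letter C was the lowest array at each time. The means were 222 ± 75.8 and 192 ± 30.1 at 3 h and 101 ± 34.7 and 82.6 ± 36.7 at 6 h (LK then GW, SD, n = 3). The 6 h level was 2.09-fold lower in low potassium (log2 change -1.07 ± 0.29 SE, limma adjusted p = 0.0177) and 2.22-fold lower with GW5074 (log2 change -1.15 ± 0.29, limma adjusted p = 0.0111). The other 3 Id4 probe sets averaged 29.4 to 38.6, near the filter level. None of them passed, although all 3 had log2 changes below 0, from -0.47 to -0.27 in low potassium and from -0.63 to -0.23 with GW5074.

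Id2, an Id gene that is also expressed in postmitotic neurons, was the Id gene that did not pass in either time comparison. Its brightest probe set (1375532_at) averaged 5841 ± 207 and 6192 ± 207 at 3 h and 6059 ± 664 and 5572 ± 1070 at 6 h (LK then GW, SD, n = 3), with all 4 groups overlapping. The log2 change from 3 h to 6 h was 0.19 in low potassium (95% interval -0.10 to 0.47, limma adjusted p = 0.335) and 0.07 with GW5074 (-0.21 to 0.35, limma adjusted p = 0.742). With the authors' scaling alone the GW5074 value turned to -0.17. The second Id2 probe set (1368870_at) gave -0.40 (limma adjusted p = 0.181) and -0.48 (limma adjusted p = 0.105), so the 2 probe sets of this gene differed in sign. The difference between Id2 and the other Id genes was not tested.

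**Figure D2:**
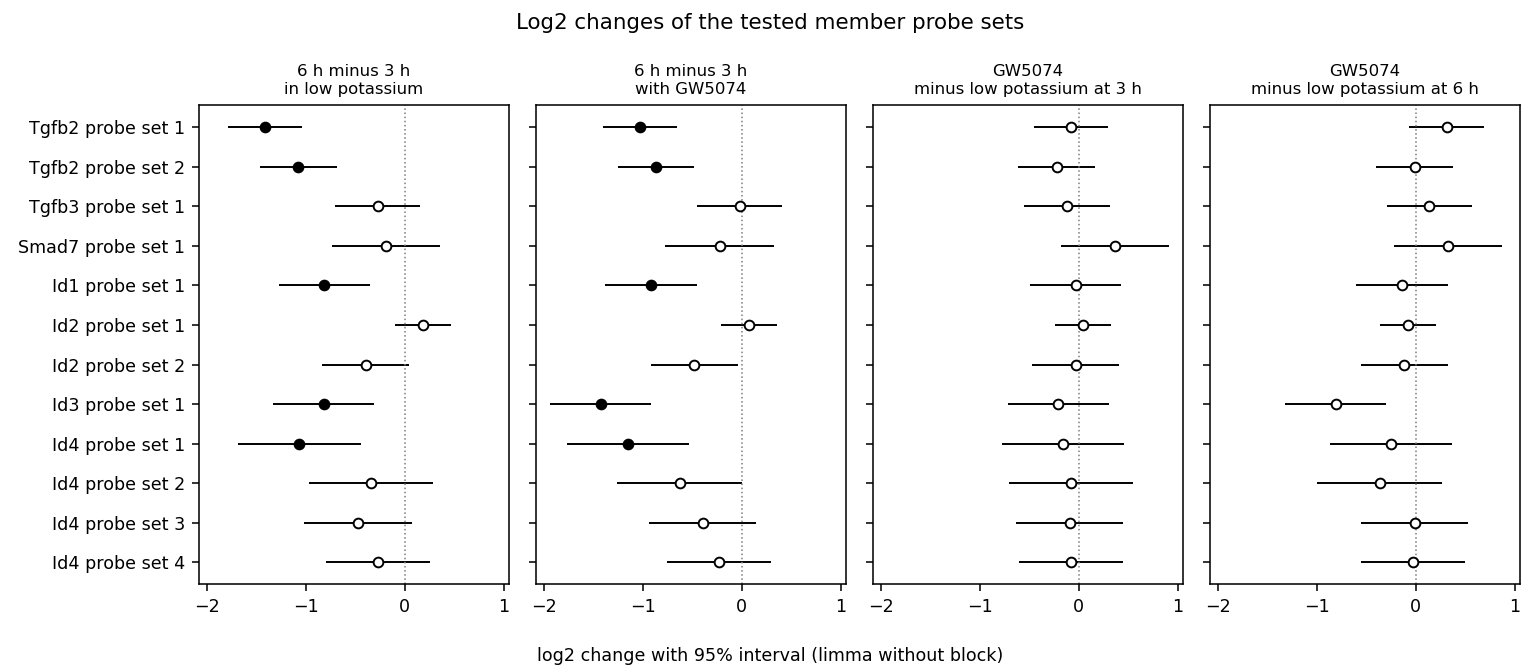
Log2 change (points) with its 95% interval (lines) of the 12 tested member probe sets in 4 comparisons, from limma without pairs, with probe sets numbered from the brightest of each gene. Filled points passed an adjusted p of 0.05. Both Tgfb2 probe sets and the brightest of Id1, Id3 and Id4 are filled and left of 0 in both time comparisons, and no point is filled for GW5074 against low potassium.

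Single arrays carried some of these calls. In low potassium the Id3 call ended without LK 3 h B (limma adjusted p = 0.122) or LK 6 h C (0.113), the Id1 call without LK 3 h C (0.0567) or LK 6 h C (0.0801), and the Id4 call without LK 3 h A (0.0703), LK 3 h B (0.0864) or LK 6 h C (0.0865). With GW5074 only the Id4 call ended when 1 array was left out, GW 3 h B or GW 6 h C (0.0521 in each case). With both arrays of a letter and time left out, the Id1 call also ended in low potassium for 3 h A (0.0543) and 3 h B (0.0539) and with GW5074 for 6 h A (0.0628), and the Id4 call ended for 6 h A in both (0.0586 and 0.0637). Without both 6 h arrays of letter B, which stood apart, the 4 genes still fell. The log2 changes were then -1.43 (Tgfb2), -0.98 (Id1), -0.83 (Id3) and -1.24 (Id4) in low potassium and -1.02, -1.13, -1.64 and -1.41 with GW5074.

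Markers of several cell types moved between the same times. All 10 granule neuron markers had log2 changes above 0 in both kinds of culture. Their median was 0.454 in low potassium, where 5 passed, and 0.86 with GW5074, where 10 passed. Of all probe sets tested, 22.7% and 25.0% passed in either direction. A limma test of whether the change differed between the kinds of culture called 0 granule neuron markers without a block and 1 with the letter as a block. Of the 9 tested astrocyte markers 2 rose in each, the filament gene Gfap by 1.87 and 1.92 and the glycolytic gene Aldoc by 1.10 and 1.24 on the log2 scale, and none passed downward. The median log2 change of the 9 was 0.065 in low potassium, with 5 above 0 and 4 below. With GW5074 it was -0.013, with 4 above 0 and 5 below. Of 7 tested oligodendrocyte-lineage markers 1 fell in each, the myelin gene Cnp, with log2 changes of -0.66 and -0.61. None of 5 tested microglial markers passed (limma lowest adjusted p = 0.202 and 0.336), nor any of 3 tested endothelial and fibroblast markers (0.592 and 0.211). Of 6 markers of Purkinje and GABAergic neurons 1 fell in each, the calcium-buffer gene Pvalb, with -1.17 and -1.52. The spike-in control probe sets also differed between the times. They averaged 7.485 to 7.674 on the log2 scale on the 3 h arrays of letters B and C. On the 3 h arrays of letter A they averaged 6.489 (LK) and 6.388 (GW), and on the 6 h arrays 6.456 to 6.91. The part of the marker shifts and of the spike-in difference in the changes of Tgfb2 and the Id genes was not tested.

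The promoters of the 4 genes that fell, and of Id2 for contrast, are shown because these are the members on which the time comparisons turn. Each run holds 250 bases before and 50 after the start from RefSeq (assembly GRCr8), 5′ to 3′ on the gene's strand, with every E-box (CANNTG, the site of helix-loop-helix factors) and GC box (GGGCGG) on either strand in capitals. Tgfb2 lies at chr13:100792636-100792935 on the minus strand, Id1 at chr3:161671314-161671613 (plus), Id3 at chr5:153656041-153656340 (plus), Id4 at chr17:16598244-16598543 (minus) and Id2 at chr6:47470946-47471245 (minus).
Tgfb2: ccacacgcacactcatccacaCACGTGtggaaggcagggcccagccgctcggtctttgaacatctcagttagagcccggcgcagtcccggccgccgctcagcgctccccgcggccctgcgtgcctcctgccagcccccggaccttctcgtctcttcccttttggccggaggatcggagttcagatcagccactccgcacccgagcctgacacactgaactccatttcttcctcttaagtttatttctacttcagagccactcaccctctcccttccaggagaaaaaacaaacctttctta
Id1: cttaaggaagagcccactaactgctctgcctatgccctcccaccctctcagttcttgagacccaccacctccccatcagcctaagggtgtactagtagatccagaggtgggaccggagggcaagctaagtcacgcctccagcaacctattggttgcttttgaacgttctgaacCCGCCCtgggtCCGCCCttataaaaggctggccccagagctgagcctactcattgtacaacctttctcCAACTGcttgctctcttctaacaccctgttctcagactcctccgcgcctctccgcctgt
Id3: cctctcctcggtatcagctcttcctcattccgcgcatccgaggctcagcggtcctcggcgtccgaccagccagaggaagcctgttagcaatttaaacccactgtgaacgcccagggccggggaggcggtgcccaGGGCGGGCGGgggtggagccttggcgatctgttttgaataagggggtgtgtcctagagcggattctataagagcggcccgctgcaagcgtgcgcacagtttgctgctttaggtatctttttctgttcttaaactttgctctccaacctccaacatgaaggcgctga
Id4: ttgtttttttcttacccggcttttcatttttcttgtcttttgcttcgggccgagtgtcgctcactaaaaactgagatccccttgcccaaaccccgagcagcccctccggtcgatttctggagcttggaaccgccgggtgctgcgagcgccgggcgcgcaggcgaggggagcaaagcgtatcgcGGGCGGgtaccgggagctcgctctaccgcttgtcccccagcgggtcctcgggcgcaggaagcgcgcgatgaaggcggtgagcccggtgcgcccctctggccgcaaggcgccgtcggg
Id2: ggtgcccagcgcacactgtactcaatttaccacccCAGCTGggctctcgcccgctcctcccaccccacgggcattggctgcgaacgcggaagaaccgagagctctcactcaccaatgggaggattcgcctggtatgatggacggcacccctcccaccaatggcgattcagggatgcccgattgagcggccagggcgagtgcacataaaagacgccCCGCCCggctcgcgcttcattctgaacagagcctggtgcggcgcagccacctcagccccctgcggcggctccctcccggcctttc

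None of the 4 motifs searched occurred in all 4 genes that fell. The E-box occurred once in Tgfb2, at -229, once in Id1, at -9, and once in Id2, at -215, counted in bases from the start, and not in Id3 or Id4. GC boxes occurred in Id1 (-77 and -66), Id3 (-116 and -112, overlapping each other), Id4 (-67) and Id2 (-35), but not in Tgfb2. The GC-rich SMAD motif GGCGCC occurred in Id4 and Smad7, and the CAGAC box in Id1 and Inhba. Among all 33469 promoters of the table, 72.1% held an E-box, 33.1% a GC box, 11.0% GGCGCC and 50.1% CAGAC. A match describes letters in this window and does not show binding.

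At 3 h, no member passed the test between GW5074 and low-potassium cultures. None of 12 probe sets passed, at either an adjusted or an unadjusted p of 0.05, against 0 of 18625 (0%) in limma without pairs, where 299 had an unadjusted p below 0.05. LK and GW arrays of the same letter deviated together at each time, and a limma fit with the letter as a block within time (the paired fit) called 0.0161% of all probe sets and no member. Log2 differences at 3 h were -0.08 for Tgfb2 (95% interval -0.45 to 0.30), -0.03 for Id1 (-0.50 to 0.43), 0.04 for Id2 (-0.24 to 0.32), -0.21 for Id3 (-0.72 to 0.31) and -0.16 for Id4 (-0.78 to 0.46). These intervals, from the fit without pairs, do not reach a log2 difference of 1 in either direction.

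At 6 h, Id3 was lower in GW5074 cultures than in low potassium, a call made only by the paired fit. The letter differences were -1.47 (A), -0.41 (B) and -0.55 (C) on the log2 scale, so all 3 were negative but the first was far larger than the others. On the deposited scale the groups overlapped by GW array B at 94.2 and LK array C at 94.0, and on the normalised scale they did not overlap. The GW5074 level was 1.75-fold lower (log2 difference -0.81, 95% interval -1.32 to -0.30 without pairs and -1.22 to -0.40 with pairs). Without pairs limma gave an unadjusted p of 0.0043 and an adjusted p of 0.906, and with pairs 0.000674 and 0.0426 (SE 0.19). The paired fit called 1.87% of all probe sets in either direction, and 0.923% lower with GW5074, against 1 of 12 member probe sets. The fit without pairs called 0% and no member, with 895 probe sets at an unadjusted p below 0.05.

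The Id3 call rested on few arrays. GW 6 h array A, whose title alone ends in e3_le1, held the lowest Id3 reading of all arrays (46). Without the 6 h arrays of letter A the paired difference was -0.48 (limma adjusted p = 0.381), without those of letter C -0.94 (0.077), and it also ended without the 3 h arrays of letter B (0.058) or C (0.0526) and without the mean-variance trend (0.241). Without 6 h letter B it was -1.01 (0.0315). It held in 4 of 9 paired settings, and the difference was negative in all 9.

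**Figure D3:**
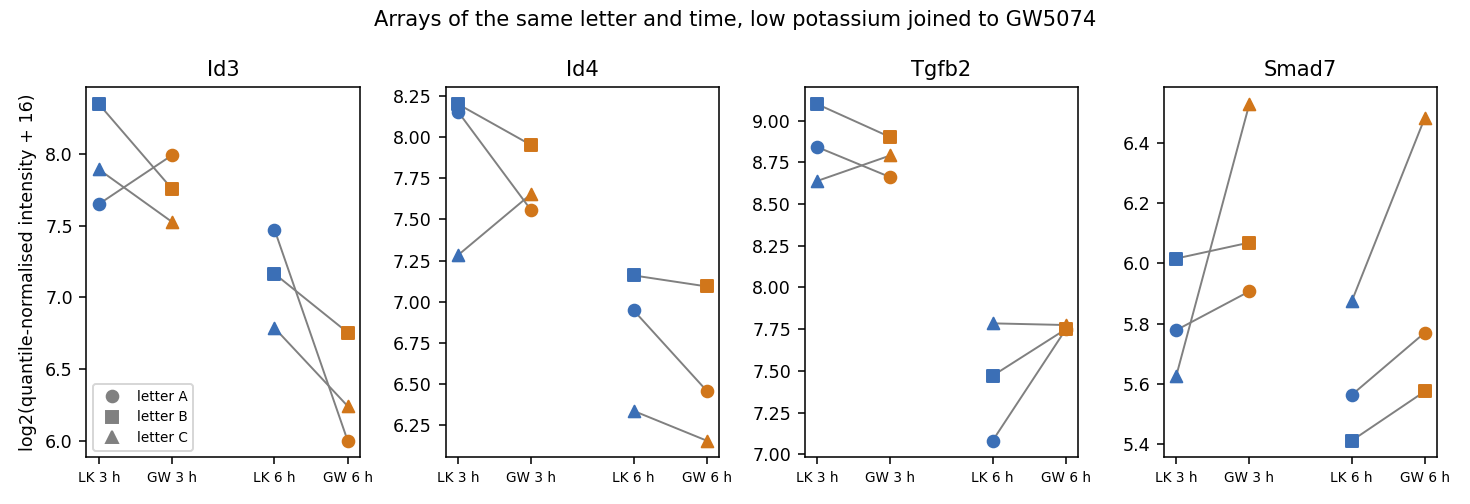
Log2 of the quantile-normalised intensity plus 16 for Id3, Id4, Tgfb2 and Smad7, with a line from the low-potassium to the GW5074 array of the same letter (circle A, square B, triangle C) at each time. The 3 lines of Id3 at 6 h go down, with differences from -1.47 to -0.41, and the 3 lines of Smad7 go up at both times without passing the test.

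Other measures also differed between GW5074 and low-potassium arrays. The 3′ minus 5′ signal of the actin control probe sets, a measure of RNA integrity, was greater on the GW array in 6 of 6 pairs, by 0.11 on average at each time on the log2 scale. The differences were uneven, at 0.022, 0.018 and 0.297 (A, B, C) at 3 h and 0.112, 0.184 and 0.035 at 6 h. The same measure for GAPDH was greater in 4 of 6 pairs and in 2 of 3 at 6 h, by 0.022 on average there. At 6 h the spike-in controls were dimmer on each of the 3 GW arrays than on the LK array of its letter, with mean log2 differences of -0.43, -0.09 and -0.45. Of 9 tested astrocyte markers, 8 were lower with GW5074 at 6 h, with a median log2 difference of -0.15 and none past the threshold. Sums over all 10 astrocyte markers on the table ran from 4338 to 6688 in low potassium and from 4762 to 5172 with GW5074. Markers of Purkinje and GABAergic neurons were lower in 5 of 6 (median -0.29) and oligodendrocyte-lineage markers in 6 of 7 (median -0.10), and none of either list passed. Of 10 granule neuron markers 7 were higher (median 0.12), and 1 passed in the paired limma fit, the glutamate transporter gene Slc17a7, which rose by 0.42 (adjusted p = 0.00429; 0.983 without pairs). The part of these measures in the Id3 difference was not tested.

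No other member passed at 6 h in either fit, and the intervals given next are from the fit without pairs. Log2 differences were -0.14 for Id1 (95% interval -0.60 to 0.32), -0.25 for Id4 (-0.86 to 0.37), -0.08 for Id2 (-0.36 to 0.21) and 0.14 for Tgfb3 (-0.29 to 0.56). Tgfb2 was higher with GW5074 by 0.31 on its brightest probe set, with an unadjusted p of 0.0246 and an adjusted p of 0.224 in the paired limma fit. The second Tgfb2 probe set gave -0.01. Id4 was lower in 3 of 3 letters, with differences from -0.49 to -0.07, without passing.

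Whether the GW5074 difference itself changed between 3 h and 6 h was tested by the interaction, and no member passed. Limma without pairs called 0% of probe sets, with 644 at an unadjusted p below 0.05, and the paired fit called 0.177%. Id3 had an interaction of -0.60 (95% interval -1.33 to 0.12, limma adjusted p = 1, paired 0.346), a more negative difference at 6 h than at 3 h. Matched by letter across times, the values were -1.81 (A), 0.18 (B) and -0.18 (C), although letters did not pair arrays across times, so this matching is arbitrary. The paired value was -0.27 without the 6 h arrays of letter A and -0.33 without its 3 h arrays. Tgfb2 had 0.39 (limma adjusted p = 1, paired 0.357), the opposite direction. The fall of these genes with time is therefore not shown to differ between the 2 kinds of culture.

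Other genes of the pathway moved in both directions between 3 h and 6 h. Over the 6 lists together, 11 of 54 tested genes (20.4%) passed in low potassium and 12 (22.2%) with GW5074, close to the 22.7% and 25.0% of all probe sets. The list shares count 1 probe set per gene, while the other shares count every tested probe set. Of 8 tested ligand genes, 2 fell in low potassium, the activin subunit gene Inhbb (-1.68 on the log2 scale, limma adjusted p = 0.0154) and Gdf10, a ligand of Bergmann glia (-1.02, limma adjusted p = 0.0131). With GW5074, 3 fell, Inhbb (-1.33), Bmp2 (-0.93) and Bmp4 (-0.76), and Bmp6 rose (0.51, limma adjusted p = 0.0228). Inhbb read 290.8, 263.5 and 364.1 in low potassium at 3 h and 66.6, 200.3 and 44.1 at 6 h, and the 6 h letter B array was well above the other 2. Bmp2, which did not pass in low potassium (-0.82, limma adjusted p = 0.064), likewise read 59.8 in LK 6 h B against 30.4 and 19.5 in A and C.

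Among 7 receptor genes only Acvr2a, an activin type II receptor, rose in low potassium (0.89, limma adjusted p = 0.0115), and none passed with GW5074. Of 7 SMAD genes, Smad1, of the BMP branch, rose by 0.58 and 0.61 (limma adjusted p = 0.00321 and 0.00181), and Smad2, of the TGF-beta branch, had log2 changes of -0.67 and -0.53 (limma adjusted p = 0.00554 and 0.0155). The other 5 did not pass, and within each branch the signs were mixed: Smad5, which like Smad1 serves BMPs, had -0.41 and -0.43, and Smad3, which like Smad2 serves TGF-beta, had 0.25 and 0.55. Of 13 inhibitors and latency proteins, the BMP-binding Nog (-0.93) and the decoy receptor Bambi (-1.07) fell in low potassium, and the ubiquitin ligase Smurf2 rose with GW5074 (0.45).

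Of 12 target genes, 2 rose and 1 fell in each kind of culture. Klf11, a Krüppel-like factor induced by TGF-beta, rose by 0.81 and 0.75, and Hey1, a repressor induced by BMP and Notch signals, by 0.49 and 0.79. Tgfbi, a matrix protein named for its induction by TGF-beta, had log2 changes of -1.56 and -1.50 (limma adjusted p = 0.00437 and 0.00464). Among 7 helix-loop-helix partners, the neuronal factor Neurod1 rose by 1.21 and 1.19 (limma adjusted p = 0.000267 and 0.000185) and the E protein gene Tcf4 rose with GW5074 (0.48). Neurod1 is also on the granule neuron marker list. The list medians ran from -0.36 (ligands) to 0.29 (receptors) in low potassium and from -0.53 (ligands) to 0.25 (helix-loop-helix partners) with GW5074, against -0.003 and -0.004 over all probe sets.

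**Figure D4:**
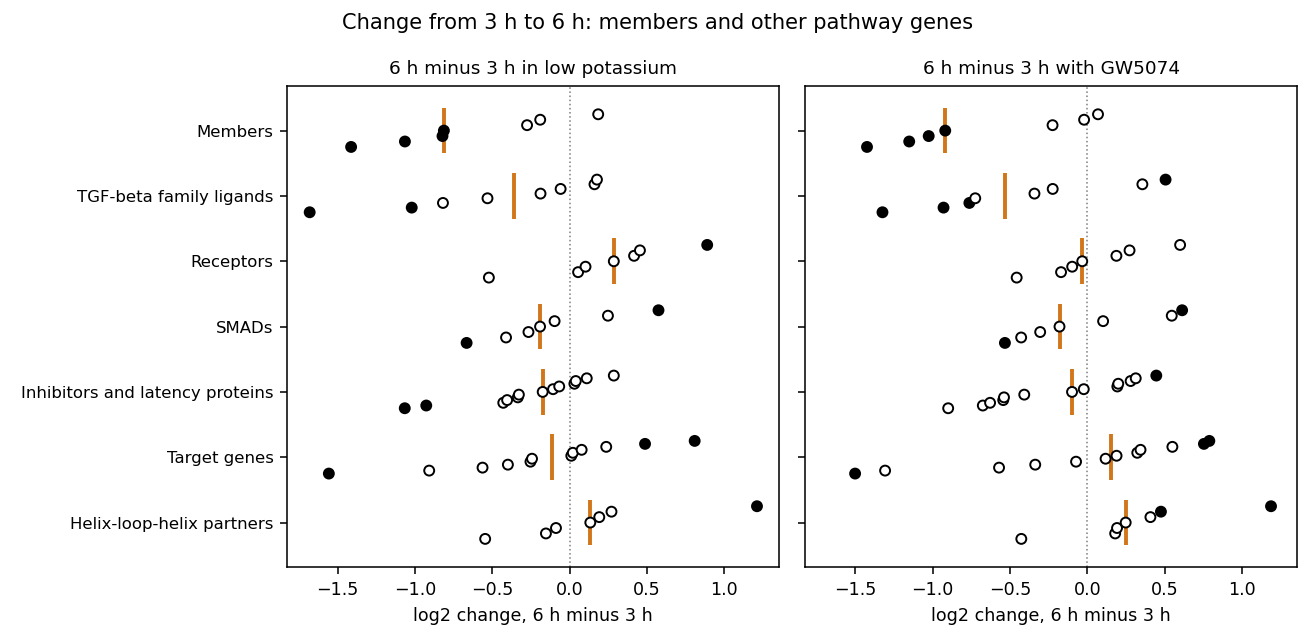
Log2 change from 3 h to 6 h of each tested gene (points, 1 probe set per gene), by list, in low potassium (left) and with GW5074 (right). Filled points passed a limma adjusted p of 0.05 and orange bars are list medians. The median of the members is -0.81 and -0.92, and the other 6 lists have medians from -0.53 to 0.29 with filled points on both sides of 0.

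For GW5074 against low potassium, no gene of these 6 lists passed at 3 h in either limma fit. At 6 h, 1 ligand gene passed in the paired fit, Inhbb, which was higher with GW5074 by 0.54 (limma adjusted p = 0.022 paired, 0.983 without pairs). The letter differences were 0.60 (A), 0.56 (B) and 0.46 (C). Its arrays overlapped between the groups, at 44.1 to 200.3 in low potassium and 67.5 to 304.3 with GW5074. Hes5, a Notch target, came nearest to a call at 3 h, with a log2 difference of -0.88 (limma adjusted p = 1). Acvr1c, a type I receptor for activin and nodal, came nearest at 6 h without pairs, with -0.77 (limma adjusted p = 0.939).

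The genes most like Id3 over the 12 arrays, by Pearson correlation of log2 values among 10254 genes, were Arl14ep (r = 0.957), Ykt6, a SNARE of membrane transport (0.953), Cnn3, an actin-binding calponin (0.953), and Txnl4a, a spliceosome protein (0.952). Cnn3 averaged 1258 and 1225 at 3 h and 1028 and 717 at 6 h (LK then GW), and so was lowest with GW5074 at 6 h, as Id3 was. Arl14ep, Ykt6 and Txnl4a were lowest there too. Because these genes were chosen by correlation with Id3 over the same arrays, a shared lowest group follows in part from the choice. Those most like Tgfb2 were Palmd (0.976), Zdhhc14 (0.974), Gak (0.972) and Trim37 (0.971), and Palmd averaged 280.0 and 243.5 at 3 h and 36.5 and 55.8 at 6 h. All points share their arrays and the split by time, and the correlations are descriptions without a test.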

How the data were processed

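Total RNA was measured on 12 Affymetrix rat arrays. The deposited values are 1 linear intensity per probe set and array, 31099 in all with 57 controls. From the values, the authors scaled every array to a trimmed mean of 150 (2% cut at each end). The software that summarised the probes is unnamed (not given in the sources used here). With arrays, precision is limited by their number. Symbols came from the platform table and were updated through Entrez identifiers to RefSeq (assembly GRCr8): 20826 probe sets had 1 symbol, 436 several and 9780 none, and 20758 matched.

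The intensities were quantile-normalised without control probe sets and taken as log2(value + 16), the scale of all log2 and fold changes. Means ± SD are of deposited values. Probe sets with a mean at or above the 40th percentile (28) were tested with limma 3.58.1 in R 4.3.3 (two-sided, 4 group means, eBayes with a mean-variance trend, 8 residual degrees of freedom), with Benjamini-Hochberg adjustment over 18625 probe sets at 0.05, for 5 comparisons. The script was tested on simulated data. Figures used matplotlib 3.10.9 in Python 3.11.15.

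A paired fit, with the letter as a block within time (4 residual degrees of freedom), was an alternative, with letters read from the titles. After removal of group means, arrays of a letter correlated by 0.425, 0.21 and 0.542 (A, B, C) at 3 h and 0.293, 0.65 and 0.572 at 6 h, each the best match, against -0.067 to 0.182 across times.

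Every member is named, each gene by its brightest probe set. Of each pathway list, genes past the threshold and up to 3 with the smallest p per comparison could be named, and 4 genes of like pattern for each of the 2 members with the smallest p (GW5074 at 6 h, time in low potassium). The members, lists and tests were chosen with earlier results of these data known. Alternatives changed the scaling, pseudocount, filter, trend, block and arrays.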

Additional observations from a re-analysis of the deposited data

How the results depend on the processing

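Without pairs, the 4 time calls in low potassium and the 4 with GW5074 held under the authors' scaling, pseudocounts of 1 and 64, no filter, a 60th percentile filter, no trend, and a replicate block by letter (4 in each). With that block, although letters did not pair arrays across times, 2 further probe sets passed with GW5074: the second of Id2 (-0.48, limma adjusted p = 0.0412) and a dimmer one of Id4 (-0.63, limma adjusted p = 0.0482). Leaving out arrays of 1 letter gave 1 to 4 called members in low potassium and 2 to 4 with GW5074, 1 of them Id2 in low potassium without both 6 h A arrays (0.32, limma adjusted p = 0.0346). For GW5074 at 6 h the count was 0 without pairs under all these settings and 1 (Id3) with the replicate block within time. With it, and chosen after seeing the data, it was 1 with the authors' scaling and 0 without the trend. It was 0 to 1 when the arrays of a letter and time were left out. The paired fit changed no other member call.

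Several values that did not pass changed sign. Leaving out arrays moved the 3 h GW5074 difference between -0.189 and 0.045 for Tgfb2, -0.246 and 0.041 for Tgfb3, -0.185 and 0.062 for Id1, -0.008 and 0.084 for Id2, and -0.457 and 0.062 for Id4. At 6 h it moved between -0.347 and 0.042 for Id1 and -0.206 and 0.086 for Id2. The time change with GW5074 lay between -0.06 and 0.23 for Id2 (-0.17 with the authors' scaling) and -0.14 and 0.11 for Tgfb3. Interactions lay between -0.306 and 0.236 for Smad7, -0.315 and 0.074 for Id1, -0.246 and 0.046 for Id2, and -0.349 and 0.211 for Id4. The cause was not tested. Tgfb1 and Inhba entered only without the filter and were not called there.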
